A study of Gallus gallus with 26 samples.

Results

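The comparison spans the whole period sampled from the complexus muscle of broiler chickens (Gallus gallus): the 4 libraries of embryonic day 21 (E21) were set against the 6 libraries of embryonic day 15 (E15). They are 10 of the 26 libraries of the series, chosen by their day label, and the other 16 libraries were taken at E17, E19 and E20. Day was the only labelled factor that differed between the groups. No treatment, genotype or strain beyond broiler is given, and the labels put all samples in a single batch. The sample labels call the last group embryonic day 21, while the series description names its last 2 days hatch and chick placement. The deposited table also holds a comparison named after against before hatching. Whether the E21 birds had hatched is not given in the labels. Age and hatching cannot be told apart in this contrast. The labels do not say whether libraries came from separate birds. The p-values therefore measure only the spread between these samples, which may be technical.

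The complexus runs from the neck to the back of the skull and raises the head so that the beak can break the shell. It enlarges before hatching and shrinks afterwards. Over the same days the embryo passes from gas exchange across the chorioallantois to breathing with its lungs, and muscle draws on glycogen and lipid for the work of hatching. The libraries were made by MARS-Seq, per the series description, a method that tags samples with barcodes, pools them early and sequences the ends of transcripts. Genes are given by Ensembl identifier only, and none of the 8758 identifiers could be paired with a name, so neither the muscle's defining genes nor markers of other cell types could be checked. The results are therefore described by groups of genes and by 4 identifiers, with no function attached to any of them. In bulk tissue, fewer cells of a type and less RNA per cell cannot be told apart.

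The E15 libraries held between 803168 and 2208872 counts and the E21 libraries between 661931 and 2046622. Libraries of a day resembled each other more than libraries of different days. Pearson's correlation of log2 CPM (counts scaled to the library total) across genes, which are not independent replicates, was 0.952 to 0.968 over the 15 pairs within E15 and 0.95 to 0.97 over the 6 pairs within E21. Between the days it was 0.764 to 0.817 over 24 pairs. The biological coefficient of variation, estimated by edgeR within each day, was 16.6% at E15 and 18.2% at E21. A small set of genes was uneven at E15. For 12 genes the highest library was above 5 times the median, and their levels summed to 687 normalised CPM in replicate 3 and 896 in replicate 4, against 133 to 331 in the other 4 libraries. Replicates 3 and 4 were the highest pair for 4 of these 12 genes. At E21, 8 such genes summed to 464 normalised CPM in replicate 3 and to between 22.5 and 77.1 in the other libraries. The genes of both days were chosen for a high library, so a high sum in some library is partly built in. A group of 7 genes had at most 1 count in E15 replicate 4 and in 6 libraries of E17, E19 and E20, and was counted in every E21 library. None of these 7 genes passed the test between E21 and E15. The next largest group of genes absent from a shared set of libraries also held 7 genes, so this group was not singular. Results that rest on single libraries are given with and without them.

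Most of the genes tested differed between the ends of the period, and rises and falls were nearly equal in number. In edgeR, 3290 of 5901 genes (55.8%) had a Benjamini-Hochberg adjusted p under 0.05. At E21, 1607 genes (27.2%) were higher and 1683 (28.5%) were lower. Without a test, for 2542 genes (43.1%) the E15 and E21 libraries did not overlap in level, with 1271 (21.5%) in each direction. This balance depends on the scale. With library totals in place of the TMM factors, which correct for the weight of abundant genes, 2091 genes were higher and 1300 lower, and the median change over the genes tested moved from -0.03 to 0.18 on the log2 scale. Directions are therefore relative to the bulk of the genes. Without both E15 replicates 3 and 4, 2895 genes differed, 1390 higher and 1505 lower.

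Over all genes tested, the largest changes were more often falls than rises. With TMM factors the lead of the falls at 2-fold lay mainly at low levels. At least 2-fold differences with an adjusted p under 0.05 in edgeR were found for 1846 genes (31.3%), of which 808 (13.7%) were higher and 1038 (17.6%) lower at E21. Between 2- and 4-fold, 579 genes were higher and 637 lower. Between 4- and 8-fold, the counts were 150 and 230. Past 8-fold, 79 genes were higher and 171 lower. With library totals the split of the 2-fold genes turned, to 1104 higher and 818 lower, while past 8-fold the falls still led with 145 against 100. In the classes under 2-fold the balance was the other way: 258 genes were higher and 188 lower by less than 1.5-fold, and 541 were higher and 457 lower by 1.5- to 2-fold. The median log2 fold change was 1.01 among the genes higher at E21 and -1.20 among those lower. A test against a 2-fold difference, which asks that the change itself exceed 2-fold, called 1006 genes, 417 higher and 589 lower. In ranks 3001 to 5901 by mean level, at most 26.2 normalised CPM, 614 genes were at least 2-fold lower and 360 higher. Among genes with at least 10 normalised CPM on both days, rises led at 2-fold, with 487 higher and 445 lower.

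**Figure D1:**
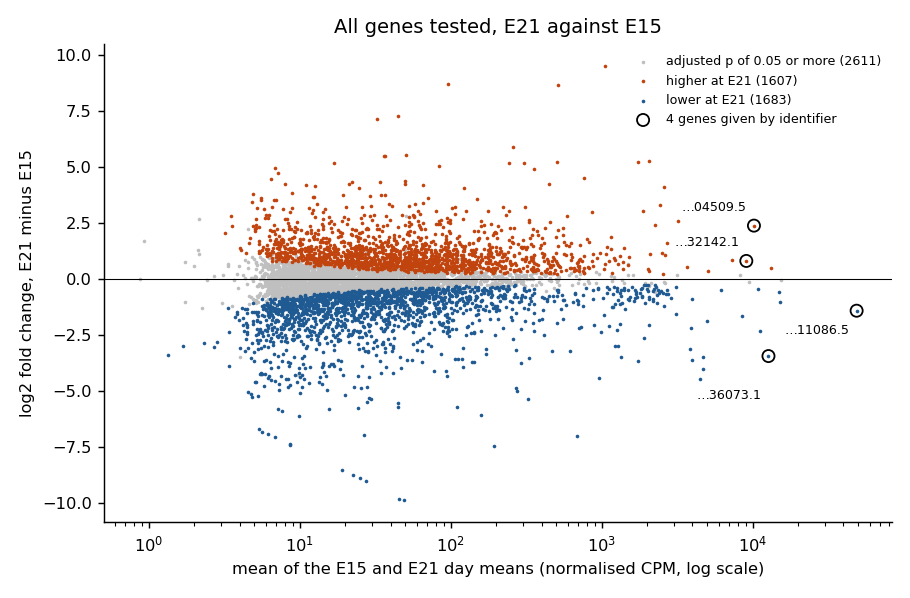
Log2 fold change from E15 to E21 (vertical axis) against the mean of the E15 and E21 levels in normalised CPM (horizontal axis, log scale) for the 5901 genes tested. Each point is a gene, in orange where it was higher at E21 (1607), in blue where lower (1683) and in grey where the adjusted p was 0.05 or more (2611). Circles mark the 4 genes given by identifier, and the fitted changes ran from -9.86 to 9.54, where the value of a gene with no count on a day depends on the fit.

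The direction of change varied with abundance. Genes were ranked by the mean of their E15 and E21 levels. These levels are counts scaled to the library and not divided by transcript length, so a rank compares counts. Among the 20 most abundant genes, 12 were lower and 5 higher at E21. Among ranks 21 to 100, 52 of 80 (65%) were lower and 17 higher. The balance turned in the next class: of ranks 101 to 500, 190 genes (47.5%) were higher and 117 (29.2%) lower. Ranks 501 to 1500 held 403 higher and 271 lower genes, and ranks 1501 to 3000 held 455 and 410. In the last class, ranks 3001 to 5901, falls again outnumbered rises, at 821 against 537. On the scale of library totals, the first 2 classes still held more falls, 12 against 6 and 43 against 20, and the last class turned, to 635 falls against 710 rises.

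The medians followed the same order. The median log2 fold change was -0.51 in ranks 1 to 20, -0.47 in ranks 21 to 100 and 0.25 in ranks 101 to 500. It was 0.15 in ranks 501 to 1500, 0.05 in ranks 1501 to 3000 and -0.16 in ranks 3001 to 5901. With library totals the medians were -0.29, -0.26, 0.46, 0.36, 0.27 and 0.06 in the same order of classes. The sign was thus the same on both scales down to rank 3000, and it changed with the scale in the last class.

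**Figure D2:**
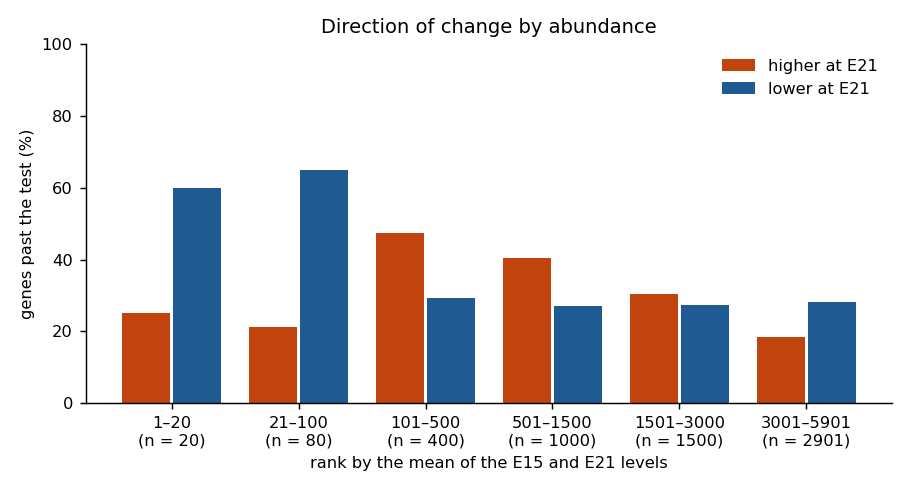
Percent of the genes of each abundance class that passed the test (vertical axis), higher (orange) or lower (blue) at E21, by rank of the mean of the E15 and E21 levels (horizontal axis, number of genes below each class). Falls led in the 2 most abundant classes, with 65% of ranks 21 to 100 lower at E21, and rises led from rank 101 to rank 3000, with 47.5% of ranks 101 to 500 higher.

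The order of the most abundant genes changed with this. Of the 20 genes with the highest mean at E15, 11 (55%) were also among the 20 highest at E21. The other 9 fell to ranks as low as 328, and the 9 genes that took their places had stood as low as rank 1002 at E15. Of the E15 top 20, 15 were lower at E21, 12 of them at least 2-fold, 2 were higher and 3 did not pass the test. Of the E21 top 20, 11 were higher than at E15, 6 were lower and 3 did not pass. On the scale of library totals, 15 of the E15 list were lower and 12 of the E21 list higher. Of the 100 highest genes of each day, 66 were shared. A gene of the E21 list had stood at rank 5826 at E15, and the E15 list reached down to rank 1249 at E21. The genes of a day's top list were chosen by one of the levels compared, so a fall among the E15 genes and a rise among the E21 genes is partly built in.

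Counts were spread over more genes at E21 than at E15. At E15, 78, 82, 78, 85, 72 and 80 genes held 50% of the counts of replicates 1 to 6. At E21, 149, 138, 130 and 146 genes were needed in replicates 1, 3, 5 and 6. Every E21 library lay above every E15 library. The E15 mean was 79.2 ± 4.4 genes (SD, n = 6) against 140.8 ± 8.54 for E21 (SD, n = 4), which is a ratio of 1.78 (exact two-sided permutation p = 0.00952). With 210 assignments, this is the smallest p that the test, which doubles the one-sided value, can give.

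The effective number of genes, the exponential of the Shannon entropy of the shares of counts, gave the same order. It averaged 644.6 ± 42 over the E15 libraries (SD, n = 6) against 966.7 ± 43.9 over those of E21 (SD, n = 4), which is a ratio of 1.5 (exact two-sided permutation p = 0.00952). The E15 libraries reached at most 705.4 and the E21 libraries were at least 914.4. The number of genes with any count moved the opposite way. After each library had been thinned to 661931 counts, 8024 ± 85.7 genes were counted at E15 (SD, n = 6), against 7827 ± 46.6 at E21 (SD, n = 4), and the difference was -196.8 (exact two-sided permutation p = 0.00952). Without thinning the difference was -224.5 and the exact permutation p was 0.143, with libraries of unequal depth. All 3 measures had an adjusted p of 0.00952 over the family of 3 exact tests. The E21 libraries thus held fewer listed genes at a common depth, and divided their counts more evenly among them. Each listed gene had at least 6 counts in some library. E15 had 6 libraries with 7835628 counts, and E21 had 4 with 4791319, so genes of E15 could enter the list more easily. Thinning does not remove this, and its effect was not tested.

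**Figure D3:**
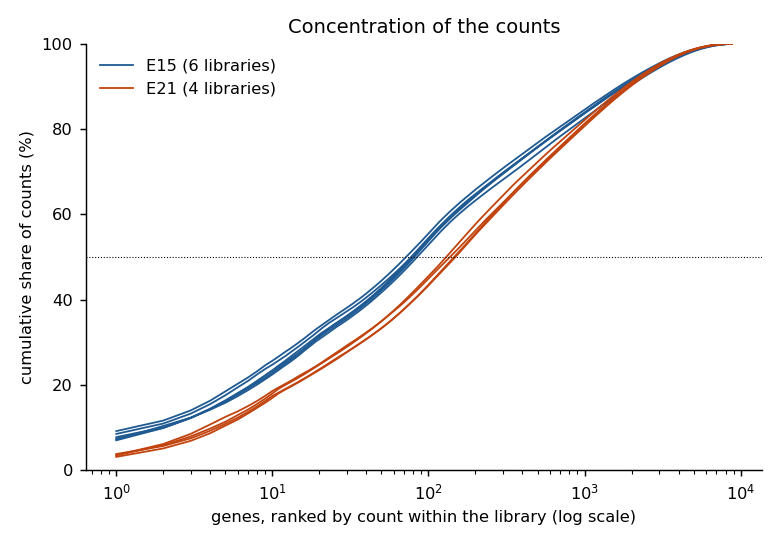
Cumulative share of the counts of a library in percent (vertical axis) against genes ranked by count within that library (horizontal axis, log scale), with 1 line for each of the 6 E15 libraries (blue) and 4 E21 libraries (orange). The dotted line marks 50% of the counts, which the E15 libraries crossed at 72 to 85 genes and the E21 libraries at 130 to 149.

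The days between did not lie between these ends. The mean number of genes holding 50% of the counts was 57.7 at E17, 40 at E19 and 72.4 at E20. The single most abundant gene held 7.83% of the counts at E15 and 3.46% at E21, and the 10 most abundant together 23.7% and 17.7%. At E19 the 10 most abundant held 36.4%. The difference was wider over the 100 most abundant genes, which held 54.1% of the counts at E15 and 44.3% at E21. It was small over the 1000 most abundant genes, which held 83.7% and 81.4%.

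Sets of genes chosen by the contrast itself show how much of the library the changes involved, as a description without a test. The 1683 genes lower at E21 held 61% ± 0.456 of the counts at E15 (SD, n = 6) and 30.6% ± 0.707 at E21 (SD, n = 4). The 1607 genes higher at E21 went from 18.1% ± 0.335 (SD, n = 6) to 45.3% ± 0.765 (SD, n = 4). Most of this exchange lay after E19. The lower genes still held 56.1% at E19, then 43.4% at E20, and the higher genes held 23% and 34.2% on those days. The 2611 genes that did not pass the test held 20% at E15 and 23.2% at E21.

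Single genes show the size of these shifts. By a rule on the difference of the day means, 2 genes that rose and 2 that fell are given by identifier. The rule took only genes with an adjusted p under 0.05 and libraries that did not overlap. Separate libraries and a passing p were thus conditions of the choice. The largest fall in level was that of ENSGALG00000011086.5, the gene with the highest mean on each of the 5 days. Its E15 libraries, replicates 1 to 6, stood at 76790, 67160, 64480, 61820, 85970 and 69160 normalised CPM, and its E21 libraries, replicates 1, 3, 5 and 6, at 28490, 26980, 28200 and 23940. No E21 library came near the lowest E15 library. The mean fell from 70900 ± 8970 (SD, n = 6) to 26900 ± 2080 (SD, n = 4). On the log2 scale this was -1.40 (SE 0.10, 95% interval -1.59 to -1.20, adjusted p = 3.71e-15 in edgeR). The path was not direct: the mean was 115400 normalised CPM at E17, 147500 at E19 and 92970 at E20, so the gene was lowest at E21 after being highest at E19.

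ENSGALG00000036073.1 fell from rank 2 at E15 to rank 37 at E21. Its E15 libraries stood at 22050, 22580, 26600, 27660, 20560 and 20440 normalised CPM, and its E21 libraries at 2465, 1732, 2728 and 1772. All 4 E21 values lay far below the 6 E15 values. The log2 fold change was -3.42 (SE 0.27, 95% interval -3.97 to -2.87, adjusted p = 2.29e-10 in edgeR), which is 10.7-fold lower in the ratio of the means. In contrast to the first gene its day means declined at each step, from 23320 at E15 to 12630, 9876, 7497 and 2174 normalised CPM.

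ENSGALG00000004509.5 had the largest rise in level. Its E15 libraries stood at 3149, 3345, 3037, 3009, 3621 and 3364 normalised CPM, and its E21 libraries at 13630, 20300, 19490 and 15270. The lowest E21 library was well above the highest E15 library, though the E21 libraries also differed more among themselves. The mean rose from 3254 ± 234 (SD, n = 6) to 17170 ± 3230 (SD, n = 4). On the log2 scale this was 2.40 (SE 0.11, 95% interval 2.19 to 2.61, adjusted p = 2.96e-20 in edgeR). The gene moved from rank 32 to rank 2. Its means at E17 and E19 were 3888 and 4746 normalised CPM, and at E20 it had reached 12640 ± 1930 (SD, n = 5). With TMM factors the larger part of the rise thus fell between E19 and E20. As a share of the library total the gene held 0.36% at E15, 0.374% at E19, 1.26% at E20 and 2.2% at E21. On that scale the rise after E20 was about as large as that from E19 to E20.

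ENSGALG00000032142.1 rose less in proportion. Its E15 libraries stood at 7204, 6313, 7072, 5887, 6666 and 6242 normalised CPM, and its E21 libraries at 12300, 9964, 12960 and 11250. The groups did not overlap. The log2 fold change was 0.82 (SE 0.11, 95% interval 0.61 to 1.04, adjusted p = 2.28e-08 in edgeR), a ratio of 1.77. With TMM factors its highest mean was at E20, 15420 ± 1670 (SD, n = 5), after 7406 at E17 and 12300 at E19. The E21 mean of 11620 ± 1310 (SD, n = 4) lay below the E20 mean. This path depends on the scale. By library totals, the E20 and E21 shares of the counts were close, 1.54% and 1.49%. The E19 share, 0.968%, was then below the E21 share, and the E17 share, 0.691%, was below the E15 share, 0.725%. Each of these 4 genes may share reads with a near-identical or overlapping gene, and the sources used here do not give the counting settings.

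**Figure D4:**
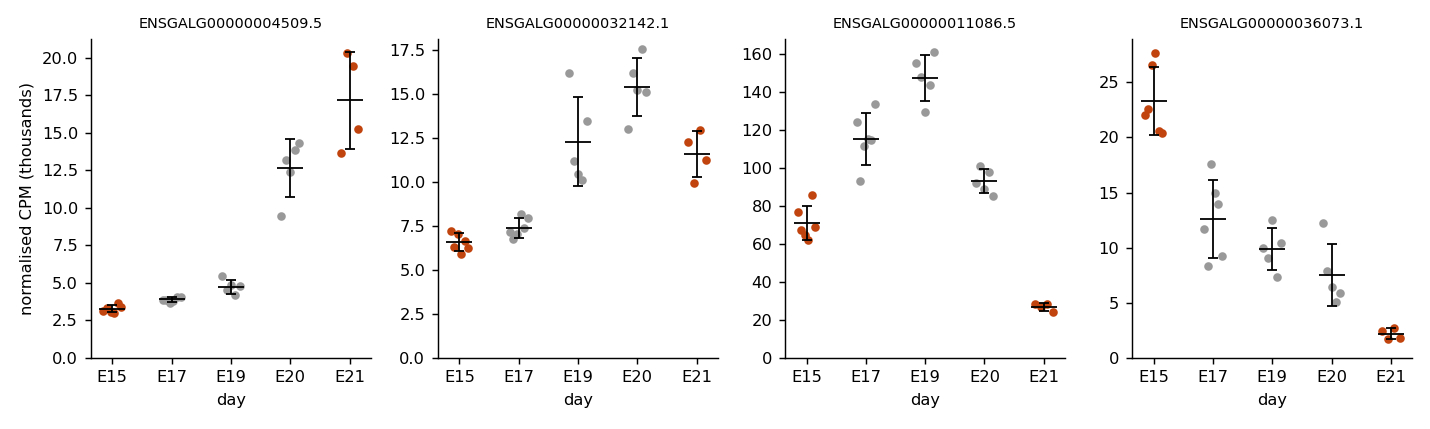
Level in normalised CPM divided by 1000 (vertical axes, each from 0) of the 4 genes given by identifier on each day (horizontal axis). Points are libraries, orange for the E15 and E21 libraries compared and grey for the days between, and black bars give the mean and SD. ENSGALG00000011086.5 peaked at E19 before its lowest level at E21, while ENSGALG00000036073.1 declined from day to day.

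Some listed genes were counted on 1 of the days only. No count was found at E15 for 27 genes, and 9 of these were counted in every E21 library, at 2.5 to 25.5 CPM by library totals (median 3.97). Taking 3 counts over the 6 E15 libraries as the limit, 0.383 CPM, their E21 levels were 6.54 to 66.5 times that limit. None of the 9 entered the test, since the filter on low counts removed them. The lowest count in an E21 library was 1, and 6 of the 9 had at least 2 counts in each. No count was found at E21 for 132 genes, and 50 of these were counted in every E15 library, at 1.28 to 99 CPM (median 5.23). The limit over the 4 E21 libraries was 0.626 CPM, and their E15 levels were 2.04 to 158 times that limit. The lowest count in an E15 library was 1, and 27 of the 50 had at least 2 counts in each. Of these 50, 11 entered the test and all 11 were called lower by edgeR. That direction was fixed by the choice of genes with no count at E21, so the calls add no evidence. Of these 50 genes, 44 had a count in some E17 library, 35 at E19 and 32 at E20, but 17, 6 and 1 were counted in every library of those days. These days differ in depth. E17 had 6 libraries of 1041633 to 2040435 counts. E19 had 5 of 580768 to 1106816, and E20 had 5 of 632074 to 1373614. The share of depth in this decline was not tested, and the choice of the genes builds part of it in. The unequal totals of the days, 7835628 counts at E15 and 4791319 at E21, allow more genes to be missed at E21. These limits cover only the counting error of the day with no count, and leave out that of the day with counts.

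The means of E17, E19 and E20 did not enter the contrast, though those libraries shared its filter, TMM factors and estimate of the spread. Those means show when the genes moved. Each gene that differed at least 2-fold was placed on a scale from its E15 mean (0%) to its E21 mean (100%) of log2 CPM. The median of the 808 higher genes stood at 9.44% at E17, 27.3% at E19 and 82.2% at E20. The median of the 1038 lower genes stood at 25.8%, 50.1% and 76.5%. With TMM factors the median rise thus lay mostly between E19 and E20, and the median fall was spread over the period. With library totals the medians of the higher genes were -3.3%, -0.472% and 64.2%, and those of the lower genes 42.8%, 83.8% and 92.3%. The order of the sets at E17 and E19, with the lower genes further along than the higher genes, held on both scales. At E20 it held with library totals and was the other way with TMM factors.

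Counted gene by gene, 262 of the 808 higher genes (32.4%) had passed halfway by E19, against 549 of the 1038 lower genes (52.9%). The shares were 14.4% and 78.8% with library totals. The most frequent first day past halfway was E20 for the higher genes, with 449 (55.6%), and E19 for the lower genes, with 395 (38.1%). On the scale of library totals it was again E20 for the higher genes, with 465 (57.5%), but E17 for the lower genes, with 423 (40.8%) against 395 at E19. Between E20 and E21, 97 higher genes (12%) and 166 lower genes (16%) crossed halfway, and the order turned with library totals, to 227 (28.1%) and 75 (7.23%). Past 8-fold the most frequent day was the same on both scales. There, 45 of 79 higher genes first passed halfway at E20 and 81 of 171 lower genes at E19, and with library totals 47 and 98.

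Movement in 1 direction at every step was the exception on both scales, with 211 higher genes (26.1%) and 338 lower genes (32.6%), and 18.3% and 22.3% with library totals. E21 was the day of the highest mean for 590 higher genes (73%), and for 714 (88.4%) with library totals. It was the day of the lowest mean for 753 lower genes (72.5%), but for 494 (47.6%) with library totals, where 287 were lowest at E20 and 249 at E19. The E15 and E21 means that fix the ends of the scale carry their own error, and part of every position is that error.

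**Figure D5:**
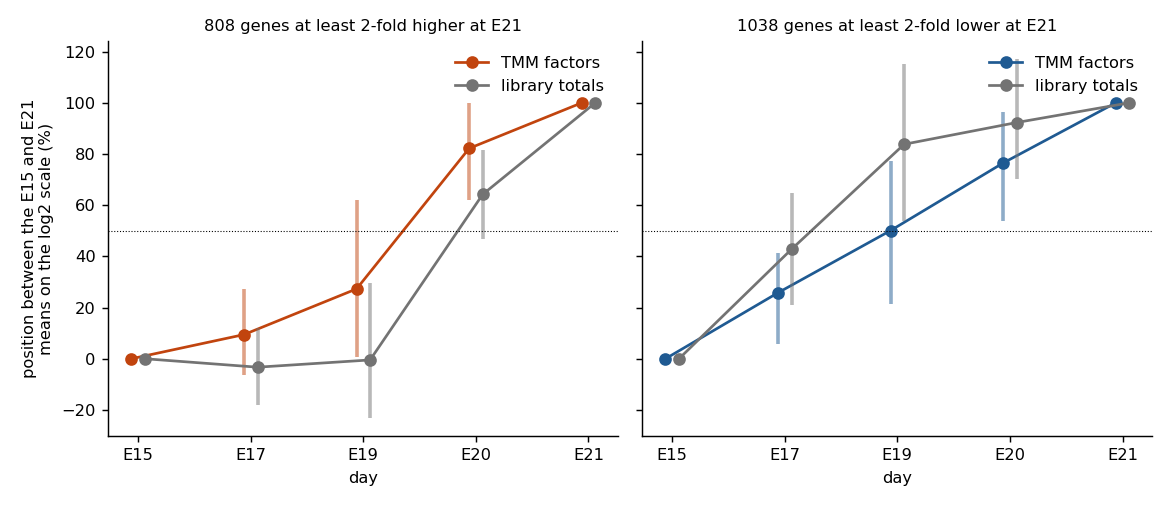
Median position between the E15 mean (0%) and the E21 mean (100%) of log2 CPM (vertical axis) on each day (horizontal axis) for the 808 genes at least 2-fold higher (left) and the 1038 at least 2-fold lower (right) at E21, with TMM factors (colour) or library totals (grey). Vertical bars give the interquartile range over genes, and on both scales the lower genes were further along at E19 than the higher genes.

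Of the genes that fell, a smaller share of the abundant ones had passed halfway by E19. Of the 20 lower genes within ranks 1 to 100, 4 (20%) had passed halfway by E19, and of the 53 within ranks 101 to 500, 11 (20.8%). The share was 36.9% of 122 genes in ranks 501 to 1500 and 58% of 843 genes below them. With library totals the shares were 45%, 49.1%, 65.6% and 83.4%, in the same order. The higher genes did not follow this order, with 5 of 13 (38.5%) in ranks 1 to 100, 34 of 80 (42.5%) in ranks 101 to 500, 37 of 161 (23%) in ranks 501 to 1500 and 186 of 554 (33.6%) below. Their shares with library totals were 30.8%, 17.5%, 9.32% and 15%. Low levels are measured with more error, so the shares were counted again for genes with at least 10 normalised CPM on both days, a choice made after these values were seen. Of the lower genes, 15 of 72 (20.8%) in ranks 1 to 500 and 168 of 373 (45%) below them had then passed halfway by E19, and by E20 55.6% and 82.8%. With library totals the shares by E19 were 48.6% and 78.6%. The higher genes went the other way. By E19, 39 of 90 (43.3%) in ranks 1 to 500 had passed halfway, and 98 of 397 (24.7%) below them. With library totals these shares were 20% and 9.07%.

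A p that misses the threshold does not show that a gene was level, so the genes that stayed close were taken from their intervals. For 729 genes (12.4%) the 95% interval of the change lay within 1.5-fold in either direction, and 38 of them also passed the test, with small differences. A further 1920 genes did not pass the test and had wider intervals, so their change is not settled at this depth. The 729 genes had a median level of 69 normalised CPM, against 27.2 for all genes tested, and held 16.9% of the counts at E15 and 19.6% at E21. With TMM factors, most also kept their level between the ends: 529 (72.6%) had all 3 middle day means within 1.5-fold of E15. The share was 58% of the 2611 genes that did not pass the test, whose median level was lower, 20.2 normalised CPM. It was 39.2% of all genes tested, which include those that changed, so that lower share is partly built in. Of the 729 genes, 21 (2.88%) were at least 2-fold higher at E19 than on both end days and 3 were at least 2-fold lower. The shares over all genes tested were 2.36% and 1.32%. These counts on the middle days depend on the scale. The TMM factors were 1.07 to 1.16 at E15 and 0.752 to 0.838 at E19. With library totals the E19 levels would therefore stand lower against E15, and no such counts are given here. The change itself compared only E15 and E21. The E17, E19 and E20 libraries did enter the filter, the TMM factors and the spread that sets the intervals. The levels on the middle days are therefore not fully independent of the choice of these genes.

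The authors' deposited table places genes in clusters made from these same libraries, so the counts by cluster describe the clusters and are not independent evidence of a direction. In the set attributed to maSigPro, a method for time courses, every tested gene of cluster 1 and all 47 of cluster 4 were lower at E21, with median log2 fold changes of -3.42 and -2.09. All 109 genes of cluster 2 and 45 of 48 in cluster 3 were higher, with medians of 2.49 and 2.33. Cluster 5 was the smallest and moved least, with 19 of 24 genes lower and a median of -0.70. With library totals 14 of its genes were lower and 2 higher, with a median of -0.49. The set attributed to DESeq2 also held 5 clusters. Clusters 1 and 5 were the most uniform, with 198 of 199 genes lower in the first and 269 of 291 higher in the last, and medians of -2.66 and 1.78. Cluster 2 held 138 lower genes of 171 and cluster 4 held 94 higher genes of 161, with medians of -1.30 and 0.94. Cluster 3 was divided, with 34 lower, 7 higher and 40 of 81 genes that did not pass the test. With library totals it held 31 lower and 11 higher genes. The main direction of every cluster in both sets was the same on both scales.

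Genes in neither set made up 84.7% of those tested, and 65.1% of the 1846 that differed at least 2-fold. The authors chose the clustered genes for changes between these same libraries, so a smaller share of changes outside the clusters is partly built in. Of the 4998 genes in neither set, 1201 (24%) differed at least 2-fold, against 31.3% of all genes tested, with 494 higher and 707 lower at E21. Their fitted log2 fold changes ran from -9.82 to 4.97, and such a value is no measure of size for a gene with no count on a day. Halfway was first passed at E20 by 247 of the 494 higher genes, and at E19 by 306 of the 707 lower genes. The most frequent days with library totals were E20 for the higher genes, with 260, and E17 for the lower genes, with 340.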

How the data were processed

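RNA came from frozen complexus muscle, per the labels' protocols. STAR 2.7.10a, HTSeq 2.0.2 and DESeq2 are named in the submitters' processing notes. Not given in the sources used here are the genome build, the annotation, the strand setting and whether reads or unique molecules were counted. The library preparation is unfilled in the labels' protocol. The authors deposited whole-number counts per gene and library, which were analysed. The deposited table also holds a normalised signal, the authors' log2 fold changes, adjusted p-values, calls and 2 sets of cluster numbers. Of these only the cluster numbers were used, which are the authors' scores from 1 to 5 per the file headers, attributed there to DESeq2 and to maSigPro. The table holds 8758 genes, each with at least 6 counts in some library. Other genes are not analysed here. None of the identifiers (0 of 8758) matched a table of 25635 RefSeq genes of another naming scheme, so gene lists, cell type markers and sequences are not analysed here.

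Members, lists and tests were chosen with earlier results of these data known. The quasi-likelihood test of edgeR 4.0.16 (R 4.3.3, robust estimation) was fitted to all 26 libraries with day as the only term, TMM factors and filterByExpr by day (minimum count 10, minimum total 15). It kept 5901 genes with 99.23% of the counts, with Benjamini-Hochberg adjustment of the p-values over all of them. The common biological coefficient of variation was 19.2%. The SE of a log2 fold change is its size divided by the square root of the F statistic, and intervals use the t quantile. Named genes were those with the largest rise or fall in normalised CPM among genes with an adjusted p under 0.05, libraries that did not overlap and at least 10 CPM on the higher day. Log2 CPM used a prior count of 2. Thinned values are means of 10 draws. Exact permutation tests used SciPy 1.17.1. The fit was run on simulated counts with few changed genes and balanced rises and falls. That setting is unlike these data and cannot check the choice of scale. Alternatives were library totals, DESeq2 size factors, no filter, the 10 libraries alone, the replicate number as a block, DESeq2 1.42.0, a test against 2-fold, and each library left out. No same-day pair of libraries agreed within sampling noise (chi-square per gene of at least 2.76), and each library was counted as 1 sample.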

Additional observations from a re-analysis of the deposited data

How the results depend on the processing

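Of 272 values under alternatives for 32 results, 258 kept their direction and their side of the threshold or stayed within 1.5 times the reported count or the spread of the libraries. This rule takes each count alone and does not register a turn in the balance of rises and falls. All median positions at E17, E19 and E20 with library totals fell outside it. The tally includes the genes given by identifier, which were chosen for a passing p. It also includes permutation tests with a library left out, whose p was fixed by the full separation of the groups. The tally is therefore no measure of how firm the results are. With library totals the balance turned, to 2091 higher and 1300 lower, and at 2-fold to 1104 and 818, though each count stayed within the rule. The genes that differed numbered 3391 with library totals, 3290 with DESeq2 size factors, 4001 of 8758 without the filter, 3257 of 5500 in a fit of the 10 libraries alone and 3840 with DESeq2, which gave no adjusted p for 7 genes. Leaving out 1 library at a time gave 3074 to 3183 genes, 1480 to 1541 higher and 1594 to 1644 lower, and 1780 to 1931 at least 2-fold (786 to 836 higher, 989 to 1103 lower). It gave 551 to 682 genes within 1.5-fold. Without robust estimation 3305 genes differed, an alternative added after seeing the data, as was the fit without E15 replicates 3 and 4.

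Replicate numbers did not pair the samples: deviations of same-numbered libraries correlated at 0.02, -0.10, 0.06 and -0.06, and 2 of 4 correlated best with their own number. With the replicate number as a block 3170 genes differed, 1558 higher and 1612 lower.

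The test against 2-fold called 1006 genes, 417 higher and 589 lower. Without the filter 1570 genes were at least 2-fold lower. A bound of 2-fold in place of 1.5-fold held the intervals of 2398 genes. Without thinning, the difference in genes counted was -224.5 (exact permutation p = 0.143). With library totals the median positions of the higher genes were -3.3%, -0.472% and 64.2% at E17, E19 and E20, and those of the lower genes 42.8%, 83.8% and 92.3%. Limited to genes with at least 10 normalised CPM on both days, the lower genes stood at 21.7% at E17 and 40.9% at E19. The cause of these shifts was not tested.

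The 4 genes given by identifier kept their call under all 18 alternatives each, with log2 fold changes from 2.31 to 2.61, 0.76 to 1.04, -1.51 to -1.18 and -3.55 to -3.21 for ENSGALG00000004509.5, ENSGALG00000032142.1, ENSGALG00000011086.5 and ENSGALG00000036073.1. These genes were chosen for a passing p, so the kept calls were partly built in. The planned counts by lists of named genes were not run, since no identifier could be paired with a name.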
